A study of Mus musculus with 8 samples.

Results

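The blood-testis barrier junction genes are the 10 genes named for the proteins that join neighbouring Sertoli cells: the claudins Cldn11, Cldn3 and Cldn5, occludin (Ocln), the junctional adhesion molecules Jam2, Jam3 and F11r, the scaffold protein Tjp1, the gap junction protein Gja1 and the cadherin Cdh2. They were listed by gene name, at a time when earlier results of these data were known. By the array's gene symbols, of which it lists 22666, they were read by 26 of 45101 probe sets. Of these, 24 list a single gene and cover 9 of the 10, whereas both Cdh2 probe sets also list a second locus, so their values are those of either or both. Each gene is described by 1 main probe set, and the others are given beside it.

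Transcripts of whole mouse testis, taken on postnatal day 23, were read on Affymetrix Mouse430_2 arrays. The labels give 5 wildtype samples, numbered 1, 2, 4, 6 and 7, and 3 Ctcfl mutant samples, numbered 3, 5 and 8. CTCFL (BORIS) is a germ cell relative of the insulator protein CTCF. By the study's methods the mutants are homozygous for Ctcfl del, an allele that lacks a run of exons and carries GFP coding sequence, on a C57/Bl6 background, and their controls are heterozygous del/+ littermates, so the controls carry 1 copy of that allele too. The name wildtype is kept here as in the labels. No label says that the samples are separate animals, so p-values measure the spread between these samples, which may be technical. In bulk tissue, fewer cells of a type and less RNA per cell cannot be told apart.

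Tight junctions between Sertoli cells divide the seminiferous epithelium into a basal part, which holds spermatogonia and early spermatocytes, and a part next to the lumen that blood-borne molecules do not reach freely. Claudins form the sealing strands, occludin and the junctional adhesion molecules lie in the same membrane, and Tjp1 ties them to actin. In testis the tight junctions sit beside gap junctions and N-cadherin contacts, and early spermatocytes cross them on their way to the lumen. CTCFL is made in germ cells on the basal side. The comparison asks whether the junction transcripts of whole testis, from somatic cells and germ cells together, differ when germ cells lack CTCFL.

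Start-site windows of 3 genes are shown, Cldn11 as the claudin that defines the Sertoli barrier, and Cldn3 and Gja1 because their probe sets departed most on 2 arrays described further on. Each holds 300 bases, 250 before and 50 after a RefSeq start (GRCm38.p6, plus strand), and capitals mark every match on either strand to the motifs searched, which were a GC box (GGGCGG), the core of the CTCF motif (AGGGGGC), an androgen receptor half-site (AGAACA) and a TATA box (TATAAA).
Cldn11, chr3:31149670-31149969: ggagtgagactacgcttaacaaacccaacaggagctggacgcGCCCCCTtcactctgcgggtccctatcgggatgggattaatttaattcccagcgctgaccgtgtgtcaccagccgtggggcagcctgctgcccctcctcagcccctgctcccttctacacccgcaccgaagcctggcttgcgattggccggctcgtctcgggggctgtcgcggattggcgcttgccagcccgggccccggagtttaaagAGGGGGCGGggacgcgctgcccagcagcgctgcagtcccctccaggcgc
Cldn3, chr5:134985964-134986263: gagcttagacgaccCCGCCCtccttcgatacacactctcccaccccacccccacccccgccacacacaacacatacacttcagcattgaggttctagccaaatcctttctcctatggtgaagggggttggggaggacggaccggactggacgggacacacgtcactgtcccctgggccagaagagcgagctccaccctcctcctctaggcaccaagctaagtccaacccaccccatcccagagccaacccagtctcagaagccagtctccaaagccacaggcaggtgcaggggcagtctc
Gja1, chr10:56377050-56377349: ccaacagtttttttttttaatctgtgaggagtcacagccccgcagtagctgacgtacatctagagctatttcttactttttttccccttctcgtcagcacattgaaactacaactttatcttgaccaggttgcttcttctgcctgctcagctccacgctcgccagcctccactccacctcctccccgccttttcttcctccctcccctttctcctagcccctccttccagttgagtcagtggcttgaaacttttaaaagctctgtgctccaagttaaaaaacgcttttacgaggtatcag
The Cldn11 window held 2 CTCF cores, and the one nearer the start overlaps the window's GC box. The Cldn3 window held 1 GC box. Over all 32851 windows, 35.7% held a GC box, 10.6% a CTCF core, 19.0% an androgen receptor half-site and 13.6% a TATA box. The Cldn11 window was the richest of the 3 in CpG, with 24 such pairs against 9 in Cldn3 and 8 in Gja1, where the median of all windows was 7. Windows were found for 7 of the 10 genes, with 2 for Ocln. A match describes the sequence and was not tested as a binding site.

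No junction gene differed between genotypes beyond the spread of the arrays. At a limma adjusted p of 0.05, 0 of the 26 probe sets passed, beside 0.00% of all probe sets. The smallest adjusted p was 1.0. Without adjustment, 0 of 26 passed 0.05 with limma and 0 by a one-way comparison, against 1564 (3.47%) and 1708 (3.79%) of all probe sets. The 5 wildtype and 3 mutant levels overlapped at every junction probe set, where 2.70% of all probe sets had no overlap. The 95% interval of each of the 26 differences held 0. At the 10 main probe sets the intervals reached from -0.30 to 0.38 on the log2 scale, which is a change of -18.8% to 29.9%, so differences of that size were within the error for one gene or another. Below, every level is a log2 RMA level, every difference is mutant minus wildtype on that scale, and every p of a single gene comes from permuting the genotype labels exactly, two-sided, where 0.0357 is the smallest value possible.

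**Figure D1:**
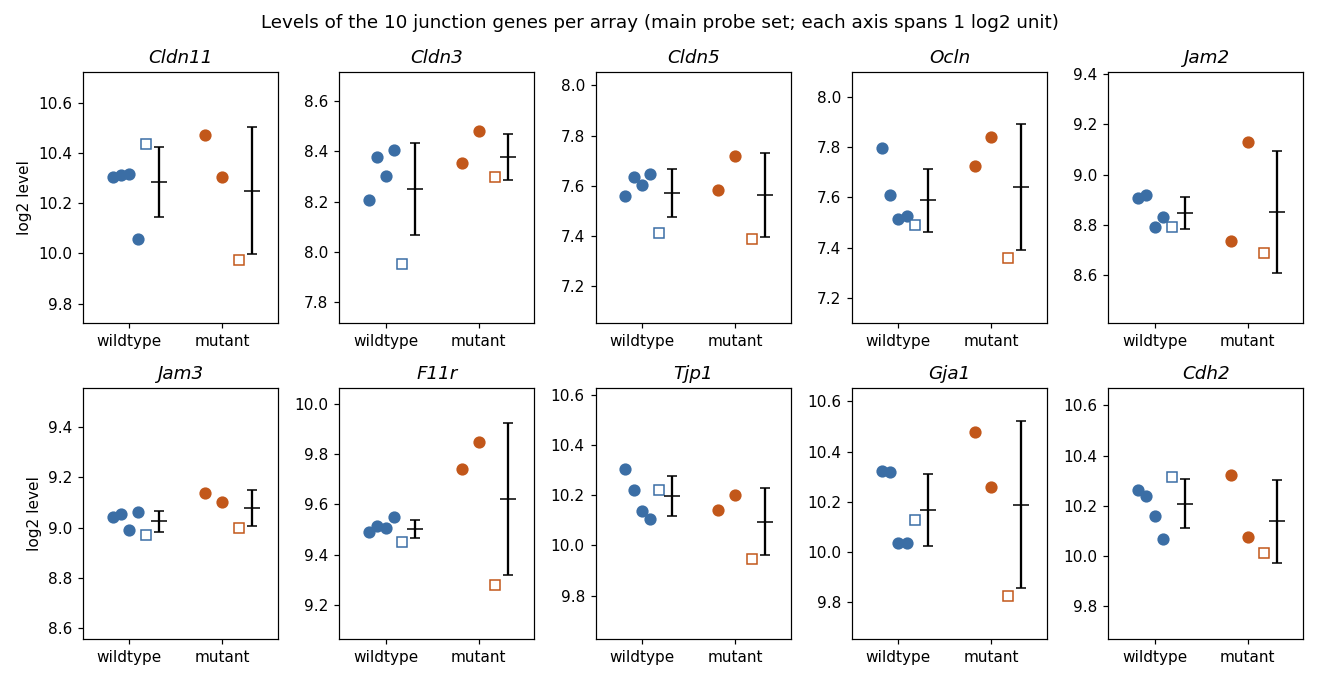
Log2 level of each junction gene's main probe set on every array, with wildtype in blue and Ctcfl mutant in orange. Open squares mark wildtype replicate 7 and mutant replicate 8, bars give the mean and SD of each group (n = 5 and n = 3), and each axis spans 1 log2 unit. The 2 genotypes overlap for all 10 genes, and mutant replicate 8 is the lowest of the 8 arrays for 8 of them.

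Among the claudins, Cldn11 (1416003_at), whose protein builds the Sertoli strands and without which the barrier does not form, stood at 10.30, 10.31, 10.31, 10.06 and 10.44 in wildtype and at 10.47, 10.30 and 9.97 in mutant testis. The mutant values were the highest and the lowest of the 8. The mean was 10.28 ± 0.14 (SD, n = 5) against 10.25 ± 0.25 (SD, n = 3), a difference of -0.035 (SE 0.12; exact permutation p = 0.821). Cldn3, a claudin of newly forming barrier strands under androgen control, read 8.21, 8.38, 8.30, 8.41 and 7.95 in wildtype and 8.35, 8.48 and 8.30 in mutant (1434651_a_at). Wildtype replicate 7 was the low value, and the mutant values lay in and above the upper part of the wildtype range. The difference was 0.13 (SE 0.11, 95% interval -0.11 to 0.37; exact permutation p = 0.357), the largest of the 10 main probe sets. Cldn5, a claudin of both Sertoli cells and blood vessel endothelium, read 7.56, 7.63, 7.60, 7.65 and 7.41 against 7.58, 7.72 and 7.39 (1417839_at). Its lowest levels were those of wildtype replicate 7 and mutant replicate 8, and the difference was -0.0069 (SE 0.09; exact permutation p = 1.0). The 15 endothelial markers, read as the other source of Cldn5, had mean levels of 6.39 to 6.46 in wildtype and 6.34 to 6.44 in mutant testis, and 7 were higher and 8 lower.

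Occludin, the tetraspan protein of the strand, read 7.80, 7.61, 7.52, 7.53 and 7.49 in wildtype and 7.72, 7.84 and 7.36 in mutant testis (1448873_at). The mutant range enclosed the wildtype range, with a difference of 0.053 (SE 0.12; exact permutation p = 0.714).

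The junctional adhesion molecules are immunoglobulin-type proteins that hold the membranes together beside the strands. Jam2 read 8.91, 8.92, 8.79, 8.83 and 8.79 in wildtype and 8.73, 9.13 and 8.69 in mutant testis (1449408_at). Its means were 8.85 in both groups, with a difference of 0.0031 (SE 0.10; exact permutation p = 0.893). Jam3, the partner of Jam2, was the steadiest of the 10, with 9.04, 9.05, 8.99, 9.06 and 8.97 against 9.14, 9.10 and 9.00 (1423503_at). Its 8 arrays spanned 0.17 and its difference was 0.055 (SE 0.06; exact permutation p = 0.214). F11r, which encodes JAM-A, read 9.49, 9.51, 9.51, 9.55 and 9.45 in wildtype and 9.74, 9.85 and 9.28 in mutant testis (1424595_at). All wildtype values lay within a narrow band, with 2 mutant values above it and 1 below. The wildtype SD was 0.04 (n = 5), the mutant SD 0.30 (n = 3) and the difference 0.12 (SE 0.12, 95% interval -0.14 to 0.38; exact permutation p = 0.357).

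Tjp1 (ZO-1), the scaffold under the strand, read 10.31, 10.22, 10.14, 10.11 and 10.22 in wildtype and 10.14, 10.20 and 9.95 in mutant testis (1417749_a_at). It had the lowest difference of the 10, -0.10 (SE 0.08, 95% interval -0.28 to 0.07; exact permutation p = 0.286), and 2 of its 3 mutant values lay inside the wildtype range. Gja1 (connexin 43), the gap junction protein between Sertoli cells and between them and germ cells, read 10.32, 10.32, 10.03, 10.04 and 10.13 against 10.48, 10.26 and 9.83 (1415800_at). The mutant arrays held both its highest and its lowest level, and the difference was 0.020 (SE 0.14; exact permutation p = 0.964). Cdh2 (N-cadherin), the adhesion protein of the basal contacts, read 10.26, 10.24, 10.16, 10.07 and 10.32 in wildtype and 10.32, 10.08 and 10.01 in mutant testis (1418815_at). Its difference was -0.071 (SE 0.09; exact permutation p = 0.536). After adjustment, limma gave 1.0 for each of the 10 genes.

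The SD was larger in mutant testis for 9 of the 10 main probe sets, with Cldn3 the exception. This count was not set against that of all probe sets. Mutant replicate 8, 1 of only 3 mutant arrays, was the lowest of the 8 arrays at 8 of the 10. Of the 10 differences 6 were above 0 and 4 below, with a median of 0.012, and over all 45101 probe sets 51.5% were above 0 and the median was 0.0032. Gja1 varied most, by 0.65 over the 8 arrays, and Jam3 least. Over all 26 probe sets the differences ran from -0.10 to 0.35, with 19 higher and 7 lower in mutant testis and a median of 0.063.

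**Figure D2:**
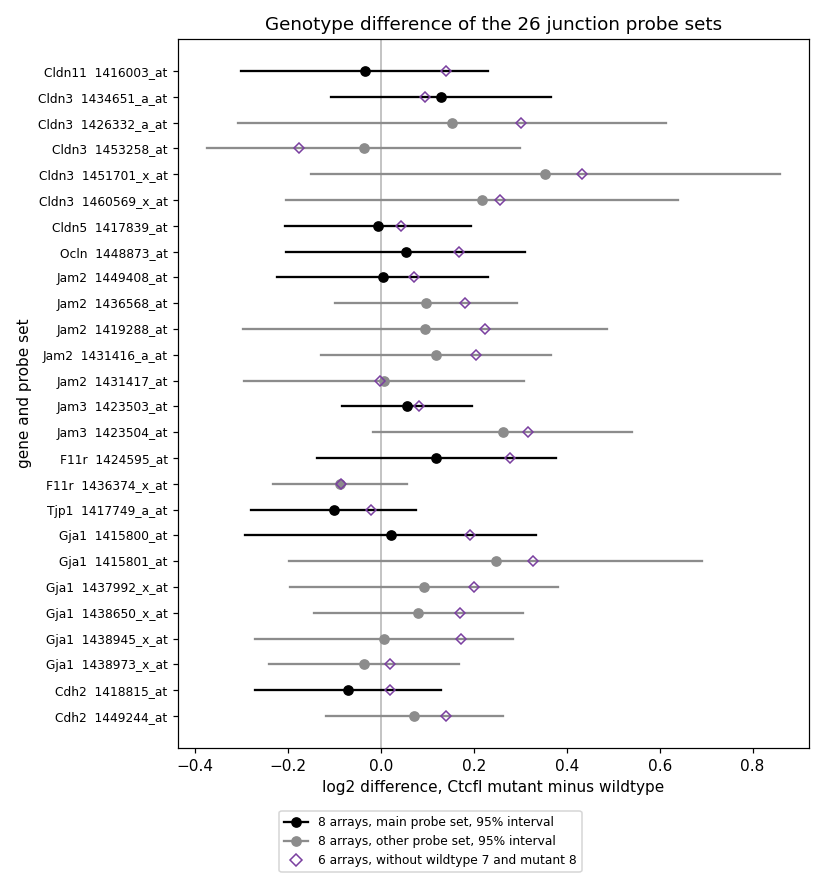
Log2 difference, mutant minus wildtype, of all 26 junction probe sets. Filled points with lines give the limma value and its 95% interval over 8 arrays (black for the main probe set, grey for the others), and open diamonds give the value without wildtype replicate 7 and mutant replicate 8. All 26 lines cross 0, and the widest is Cldn3 1451701_x_at, from -0.15 to 0.86.

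Probe sets of a gene differed in sign for 4 of the 6 genes that have more than 1. The 5 Cldn3 probe sets ran from -0.038 (1453258_at, which the annotation ties to another Ensembl gene) to 0.35 (1451701_x_at, whose suffix marks possible cross-hybridisation). Those of Gja1 ran from -0.037 (1438973_x_at, with the same suffix) to 0.25 over 6 probe sets. F11r had 0.12 and -0.089 at its 2 probe sets, the latter at 1436374_x_at, which carries that suffix and had a mean level of 6.03. Cdh2 had -0.071 and 0.072. All 5 probe sets of Jam2 and both of Jam3 were above 0, with values of 0.0031 to 0.12 and of 0.055 and 0.26. None of the probe sets named here passed the test. Jam3 1423504_at (0.26) and Jam2 1431417_at (0.0055) read low, with mean levels of 5.41 and 5.44.

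The arrays also differed in a way that genotype does not explain. The first principal component of all probe sets held 44.9% of the variance and put wildtype replicate 7 (40.2) and mutant replicate 8 (38.2) away from the other arrays (-24.8 to -3.10), so it did not follow genotype. The 9 spermatid markers read higher there, with list means of 11.04 and 10.52 against 8.24 to 8.98 on the other 6 arrays, and so did the 6 fat markers, with 7.22 and 7.14 against 5.29 to 5.97. The junction genes read low on mutant replicate 8, while on wildtype replicate 7 the share below the mean was near that of all probe sets. Mutant replicate 8 was below the mean of the other 2 mutant arrays at all 10 main probe sets and at 24 of 26, where 50.4% of all probe sets were. It was the lowest of all 8 arrays at 8 of the 10 and at 13 of the 26, against 17.2% of all. Wildtype replicate 7 was below the mean of the other 4 wildtype arrays at 7 of the 10 and 17 of the 26, against 59.95% of all probe sets. Cldn11 (0.19), Cdh2 (0.13) and Tjp1 (0.029) were the 3 above that mean.

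At 14 of the 26 probe sets (53.8%), from 7 genes, both arrays lay below every other array of their genotype, against 15.2% of all probe sets. At 1 of 26, Cldn3 1453258_at, both lay above, against 11.2% of all. Only 5 of the 26 had a mean level below the median of all probe sets, and the shares of all probe sets are not matched for level. The 14 comprised 4 probe sets of Cldn3, 4 of Gja1, 2 of Jam2 and 1 each of Cldn5, Ocln, Jam3 and F11r, and held none of Cldn11, Tjp1 or Cdh2. Of the 10 main probe sets, 5 were below on both arrays. So were 5 of 12 probe sets of spermatogonia markers, 4 of 10 of peritubular markers, 16 of 67 of tight junction scaffold and polarity genes and 12 of 53 of barrier regulators. Lower counts were found for Sertoli markers (3 of 19), ectoplasmic specialization and adherens genes (5 of 50) and other claudins (0 of 24). Added over both arrays, Cldn3 1451701_x_at, Cldn3 1426332_a_at and Gja1 1415801_at departed most from the other arrays of their genotype. Their levels were, for Cldn3 1451701_x_at, 7.02 on wildtype replicate 7 against 7.58 to 7.96 on the other wildtype arrays and 7.51 on mutant replicate 8 against 8.07 and 8.32 on the other mutant arrays. Cldn3 1426332_a_at read 5.62 against 6.06 to 6.34, and 5.70 against 6.46 and 6.53. Gja1 1415801_at read 6.70 against 7.32 to 7.51, and 7.06 against 7.65 and 7.76. As departures from the mean of the other arrays, these were -0.74 and -0.68, -0.58 and -0.79, and -0.67 and -0.65. The 10 main probe sets had median departures of -0.065 (wildtype replicate 7) and -0.25 (mutant replicate 8), the 13 Sertoli markers had 0.071 and -0.20, and all probe sets -0.038 and -0.0021. Lists of other cells had negative medians on both arrays as well, with -0.093 and -0.37 for macrophage, -0.13 and -0.14 for peritubular and -0.084 and -0.14 for spermatogonia markers. The part that transcripts of other cells have in the junction values was not tested.

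**Figure D3:**
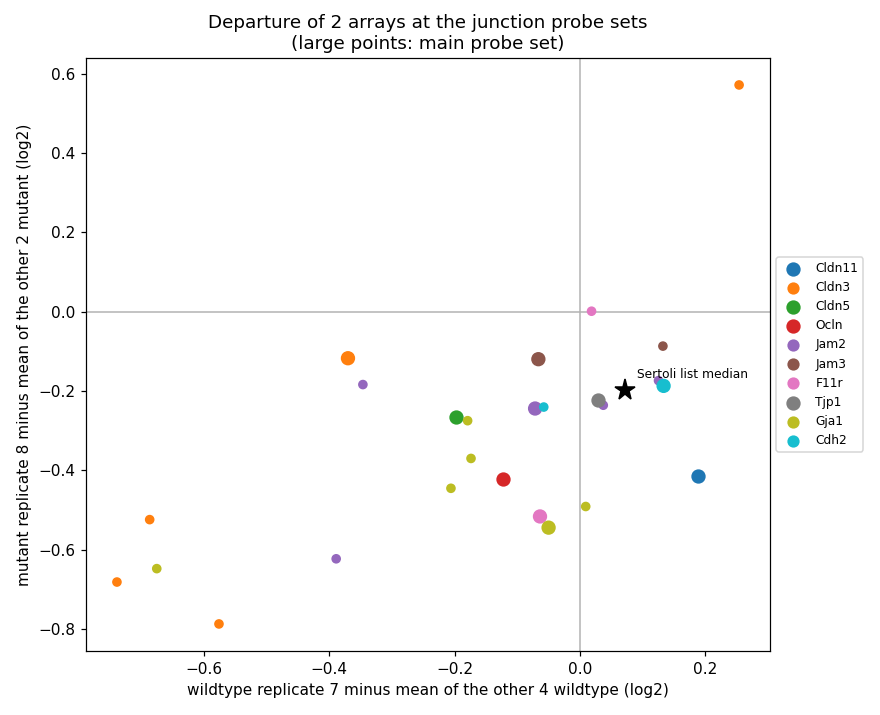
Departure of wildtype replicate 7 from the mean of the other 4 wildtype arrays (horizontal, log2) and of mutant replicate 8 from the mean of the other 2 mutant arrays (vertical, log2) at the 26 junction probe sets, coloured by gene, with main probe sets as large points. The star is the median of the Sertoli markers, at 0.071 and -0.20. All main probe sets lie below 0 on the vertical axis, and Cldn11 and Cdh2 lie farthest to the right among them.

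Without these 2 arrays, 4 wildtype and 2 mutant arrays remain. Then 8 of the 26 probe sets (30.8%), from 5 genes, were higher in both mutant arrays than in all 4 wildtype arrays, against 7.90% of all probe sets, and 0 of 26 were lower without overlap, against 6.97%. They were 3 probe sets of Cldn3, 2 of Gja1 and 1 each of Jam2 (1436568_at), Jam3 (1423503_at) and F11r (1424595_at). None passed the adjusted threshold, and the smallest adjusted p of the 26 was 0.751. Of the 8, only those of Jam3 and F11r are main probe sets, and probe sets of 1 gene are not independent. Mutant replicate 8 read below the mean of the other 2 mutant arrays at 24 of the 26. Leaving it out therefore raises most mutant means, so the shares in this paragraph are no separate support for a genotype difference. F11r had the largest of the main differences, 0.28 (95% interval 0.11 to 0.45), and its value over all 8 arrays was 0.12. Cldn3 1451701_x_at had 0.43 (0.15 to 0.72) and Gja1 1415801_at 0.33 (0.13 to 0.52). At an unadjusted limma p of 0.05, 5 of the 26 (19.2%) passed in this fit, against 6.55% of all probe sets. These were Cldn3 1426332_a_at, 1451701_x_at and 1460569_x_at, F11r 1424595_at and Gja1 1415801_at, with F11r the only main probe set among them. Cldn11 turned from -0.035 to 0.14 (95% interval -0.088 to 0.37), Cldn5 to 0.042 and Cdh2 to 0.018. The median of the 10 genes was 0.088, while that of all probe sets was -0.0024 and that of the Sertoli markers 0.17. With mutant replicate 8 alone left out, 8 of 26 did not overlap in either direction, against 11.5% of all.

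Levels of the Sertoli cells' own markers bear on genes made in those cells. The Sertoli transcription factors Sox9 and Wt1 read 7.56 to 8.02 and 9.10 to 9.43 over the 8 arrays. Of 13 Sertoli markers 12 were higher and 1 lower in mutant testis, with a median difference of 0.11, and 0 passed the adjusted threshold. Their mean level was 9.58 to 9.72 in wildtype and 9.64 to 9.84 in mutant testis. The 3 with the smallest limma p were the FSH receptor gene Fshr (0.18), Gstm6 (0.16) and the homeobox gene Rhox5 (0.15). Levels were therefore also taken relative to the Sertoli marker mean of each array, which moved the median of all probe sets to -0.10 and that of the 10 junction genes to -0.094. On that scale 0 of 26 probe sets passed the adjusted threshold. Tjp1 and Cdh2 1418815_at were lower in mutant testis without overlap, 2 of 26 against 6.49% of all probe sets. Relative to the shift of all probe sets, Tjp1 stood at -0.11, Cdh2 at -0.074, Cldn11 at -0.038, F11r at 0.12 and Cldn3 at 0.13.

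Among other cell types, Gja1 is also made by Leydig cells and Cdh2 by germ cells. The 6 Leydig markers had mean levels of 8.46 to 8.77 in wildtype and 8.50 to 9.07 in mutant testis, with 5 higher and 1 lower. Their highest array was mutant replicate 3, which also had the highest Gja1 level at 1415800_at. At Gja1 1415801_at the highest array was mutant replicate 5 (7.76). Wildtype replicate 7, with the next highest Leydig mean (8.77), read 10.13 at 1415800_at and 6.70, the lowest level, at 1415801_at. Of 6 spermatogonia markers 5 were higher, with means of 7.46 to 7.71 against 7.63 to 7.81, and of 6 spermatocyte markers 5 were lower, with 10.77 to 11.10 against 10.68 to 10.88. All 9 spermatid markers were lower, with 8.30 to 11.04 against 8.24 to 10.52. Macrophage markers stood at 7.66 to 7.92 against 7.55 to 8.04, peritubular markers at 7.72 to 7.83 against 7.72 to 7.84 and epididymal markers at 4.85 to 5.31 against 4.86 to 5.41. For peritubular Acta2 the main probe set was 1444105_at (mean level 4.35), not 1416454_s_at (12.03). Peritubular Actg2 was higher on wildtype replicate 7 (9.46) and mutant replicate 8 (9.18) than elsewhere (8.45 to 8.85). Epididymal Crisp1 was high on wildtype replicate 1 (5.82) and mutant replicate 8 (6.38), the arrays with the highest list means, and 3.17 to 3.34 elsewhere. In each of these marker lists 0 probe sets passed the adjusted threshold, and the part of other cells in the junction values was not tested.

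**Figure D4:**
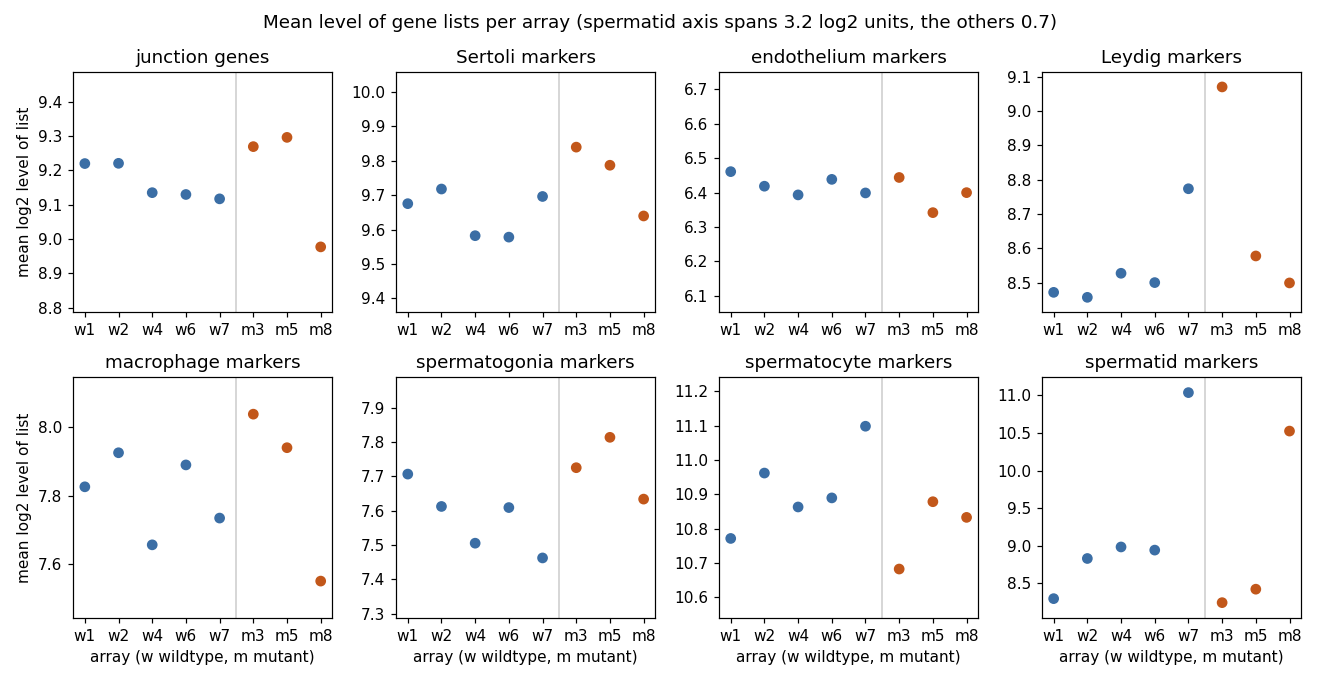
Mean log2 level of the junction genes (10 main probe sets) and of 7 marker lists on each array, with wildtype (w) in blue and Ctcfl mutant (m) in orange. The junction mean is lowest on mutant replicate 8 (8.98) and highest on mutant replicate 5 (9.30), and the spermatid mean is high on wildtype replicate 7 and mutant replicate 8.

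The wider junction machinery was read through 6 lists, with 240 probe sets of 105 genes. None passed the adjusted threshold. An unadjusted limma p below 0.05 was found for 9 (3.75%), and 5 (2.08%) had no overlap between genotypes, both near the shares of all probe sets (3.47% and 2.70%). The 4 without overlap that were higher in mutant testis were 1437448_s_at of Ctnnd1, the catenin that binds classical cadherins (0.12), 1417376_a_at (0.098) and 1431611_a_at (0.18) of Cadm1, an adhesion protein between germ and Sertoli cells, and the desmosomal cadherin Dsg2 (0.20). The lower one was 1434954_at of the polarity scaffold Pals1 (-0.12), while the main probe set of Pals1 had 0.044.

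By list, 6 of 17 other claudins were higher and 11 lower, with a median of -0.052, and the 3 of smallest p were Cldn15 (0.25), Cldn18 (-0.16) and Cldn1 (0.19). Of 24 tight junction scaffold and polarity genes 14 were higher and 10 lower, and those of smallest p were tricellulin, Marveld2 (0.22), and the atypical protein kinases C Prkci (0.15) and Prkcz (0.16). Of 21 genes of the ectoplasmic specialization, the actin-backed contact of Sertoli cells with each other and with spermatids, and of adherens contacts, 12 were higher and 9 lower, with smallest p for the actin bundling gene Espn (0.17), Cadm1 (0.13) and Nectin2 (0.11). Of 18 other gap junction genes 7 were higher and 11 lower, with Gjb5 (-0.19), Gjb2 (-0.17) and Gja5 (-0.12) of smallest p. Of 7 desmosome genes 3 were higher and 4 lower, with Dsg2 (0.20), Pkp2 (-0.20) and Pkp3 (-0.14). Of 18 regulators of the barrier 11 were higher and 7 lower, with the Src-family kinases Src (0.21) and Fyn (0.16) and the growth factor Tgfb2 (-0.15). All of these had a limma adjusted p of 1.0, so no gene of the wider machinery was called. Among those named, several main probe sets had mean levels below the median of all probe sets (6.43), a low reading. These were Cldn15 (5.11), Cldn18 (5.00), Cldn1 (5.13), Marveld2 (5.42), Gjb5 (4.97), Gjb2 (5.94) and Gja5 (4.86). So were Dsg2 (5.91), Pkp2 (6.39), Tgfb2 (5.79) and Src (6.42). Other Cldn1 probe sets had differences of -0.085, -0.0005 and 0.11.

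The genes whose levels ran most like each junction gene over the 8 arrays were found among 19993 candidate genes, as a description in which all levels share the same arrays. For Ocln they were Dcun1d1 (Pearson r = 0.988, Spearman rho = 1.0) and the laminin receptor subunit Itga6 (r = 0.983, rho = 0.976), a gene of the adherens list. For Gja1 they were Lpp, a protein of cell adhesion sites (r = 0.991, rho = 0.952), and the chaperonin gene Hspe1 (r = 0.991, rho = 0.976). For Tjp1 they were Lnp (r = 0.993, rho = 0.976) and Smcr8 (r = 0.991, rho = 0.976). Cldn11 had 1110002B05Rik (r = 0.975, rho = 0.786) and Impa1 (r = 0.971, rho = 0.952), Cldn3 had Gar1 (r = 0.969, rho = 0.905) and BC031781 (r = 0.967, rho = 0.833), and Cldn5 had Lias (r = 0.980, rho = 0.905) and 4833420G17Rik (r = 0.977, rho = 1.0). Jam2 had Ugp2 (r = 0.977, rho = 0.952) and Foxp1 (r = 0.969, rho = 0.929), Jam3 had Gna12 (r = 0.984, rho = 0.952) and Efhd2 (r = 0.977, rho = 0.905), and F11r had Pgpep1 (r = 0.981, rho = 0.929) and Setd7 (r = 0.978, rho = 0.976). Of the 20 genes so found, Itga6 was the only one in the wider junction lists. Cdh2 had Slain1 (r = 0.968, rho = 1.0) and Rnf4 (r = 0.965, rho = 0.976). Over the 6 arrays without wildtype replicate 7 and mutant replicate 8, these r lay between 0.897 (Cldn3 and Gar1) and 0.990 (Gja1 and Lpp). The genes had been picked as the highest of 19993 on arrays that include these 6, so that range is no separate check. Mutant replicate 8 departed by -0.50 from the mean of the other 2 mutant arrays at Itga6 and by -0.42 at Ocln, and the genotype difference of Itga6 was 0.038 (SE 0.13).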

How the data were processed

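Testis RNA of 5 wildtype and 3 Ctcfl mutant samples was measured on 8 Mouse430_2 arrays, and groups and replicate numbers came from the titles. The authors ran Affymetrix software, quantile normalization, RMA and limma, as the study's methods state, with versions not given in the sources used here. The deposited table holds 1 log2 level per probe set and array, used as deposited. Array medians ran from 6.40 to 6.45, and precision is limited by how many arrays there are. The authors' own comparison columns and tables (means, folds, p-values) were not used. Ctcfl, the targeted gene, is not analysed here and gives no check of the labels, and gene coordinates are not given because the annotation names no build.

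All 45101 probe sets were fitted without a filter with lmFit and eBayes (limma 3.58.1, R 4.3.3), with genotype alone and Benjamini-Hochberg adjustment, two-sided. Simulated data, in which 200 probe sets were changed, served to test the fit. Single genes had an exact permutation over 56 splits (10 tests, smallest p 0.0357). Python 3.11.15, numpy 2.4.6, pandas 2.3.3, scipy 1.17.1 and matplotlib 3.10.9 did the rest. Start-site windows came from RefSeq (GRCm38.p6).

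The junction genes, lists and alternatives were chosen with earlier results of these data known, and the windows were picked after their genes' values were seen. A gene's main probe set is the one with the highest mean level among those whose ID carries no suffix for cross-hybridisation (_s_at, _x_at), or among all where each carries one. From other lists, every gene past the threshold and the 3 of smallest limma p were to be named, and from marker lists this was done only for Sertoli cells. Probe sets without overlap were named beyond that rule, after their values were seen. Genes of like pattern are the 2 of highest Pearson r among probe sets above the median level. List genes not matched were Cldn17, Cldn20, Igsf5, Gja6, Gjd3, Inhbb, Clu, Hsd3b6, Insl3, Nanos2, Hormad1 and Plin1. Alternatives were leaving out each array or both that stand apart, a block for that pair (defined from the levels, not a label), array weights, other centring and normalization, scaling to the Sertoli marker mean, and other probe sets.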

Additional observations from a re-analysis of the deposited data

Results flagged for a closer look

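Of 43 measures examined, 4 had 1 array far from the others of its group, and all 4 were wildtype replicate 7. A rate of 1 in 20 gives 2.15 of 43, but the measures share arrays and genes, so this is no usable expectation. That array had already stood apart on the first principal component and in the spermatid and fat markers. Gja1 1415801_at read 6.70 there, with the next wildtype array at 7.32. The mean of the Leydig markers was 8.77, with the next at 8.53. The mean of the spermatid markers was 11.04, with the next at 8.98, and that of the fat markers 7.22, with the next at 5.97. The mutant group of 3 was too small for this comparison.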

How the results depend on the processing

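No junction probe set passed the adjusted threshold under any alternative run, with 0.657 the smallest adjusted p, and 31 of 196 values of single genes changed sign. Without both arrays that stand apart, 8 probe sets did not overlap, the median was 0.088, and Cldn11 (0.14), Cldn5 (0.042) and Cdh2 (0.018) turned positive. The pair as a block called 1 of all probe sets and turned Cldn5 (0.024). Array weights turned Cldn11 (0.043) and Cldn5 (0.029). Centring on the median and repeated quantile normalization turned Jam2 (-0.0010 and -0.0024). Scaling to the Sertoli mean gave 2 probe sets without overlap, a median of -0.094, and turned Ocln (-0.053), Jam2 (-0.10), Jam3 (-0.050) and Gja1 (-0.085). Other probe sets turned Cldn3 (-0.038), F11r (-0.089), Gja1 (-0.037) and Cdh2 (0.072). The cause was not tested. Leaving out 1 array gave 0 to 8 junction probe sets without overlap (8, or 30.8%, without mutant replicate 8, where 11.5% of all probe sets had none, and 0 or 1 otherwise), medians of -0.043 to 0.099 (the latter without mutant replicate 8), and Cldn11 -0.15 to 0.10, Cldn5 -0.085 to 0.081, Ocln -0.047 to 0.19, Jam2 -0.14 to 0.085 and Gja1 -0.13 to 0.20. In these, Cldn3, Jam3 and F11r stayed above 0, Tjp1 and Cdh2 below. Mutant replicate 8 read low at most junction probe sets, so leaving it out raises most of their differences by construction. No paired analysis was run, because the labels give no litter and the replicate numbers run once through both genotypes. The paper describes littermates, so any effect of litter was not taken into account. With 8 arrays, intervals of the 10 main probe sets reached -0.30 and 0.38, which limits what could be seen.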
